A study of Homo sapiens with 33 samples.

Results

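NOV, CTGF and CYR61 are secreted matricellular proteins of the CCN family (also named CCN3, CCN2 and CCN1), and they are described here together with ANKRD1, AMOTL2, AJUBA, LATS2, TEAD1 and ASAP1, which are targets or parts of the YAP-TEAD pathway. The 9 genes were found by name in each of the authors' 3 deposited tables, so 9 of 9 were measured in each, among 13310 genes for UM-UC-3 total knockout, 14332 for A-375 total knockout and 14160 for A-375 long-form knockout. The names are the older ones for the CCN genes. The genes were selected on their deposited fold changes and adjusted p-values in these tables, so those values are given as a description and support nothing further.

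The study removed GABPB1, the B1 subunit of the ETS-family transcription factor GABP, from UM-UC-3 cells, a bladder carcinoma line, and from A-375 cells, a melanoma line, and sequenced mRNA from 33 libraries, 13 of UM-UC-3 and 20 of A-375. The UM-UC-3 total knockouts were 4 libraries with exons 2 to 9 deleted (B1KO) and 5 with exon 2 deleted (B1X2KO), from 8 clones in all. Their controls were 3 libraries of UM-UC-3 clones edited at ROSA26, a locus used as a neutral control of editing, and 1 of parental cells. The A-375 total knockouts were 4 B1KO and 8 B1X2KO libraries from 9 clones. The A-375 long-form knockouts (B1LKO) were 2 libraries of 2 clones with exon 9 deleted, aimed at the long splice form. The A-375 controls were 4 ROSA26-edited and 2 parental libraries. Clones were made with Cas9 from the plasmid PX458 and sorted by fluorescence, and several libraries can come from 1 clone, so libraries are not all independent and p-values may be too small for clones. Each table's name sets the knockout over parental cells, and the labels do not say which controls entered each fit. The A-375 tables may share controls, and their values are only set side by side.

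YAP and TAZ (the product of WWTR1) are transcriptional co-activators that bind DNA through the TEAD factors. The Hippo kinases, LATS2 among them, phosphorylate them and keep them out of the nucleus. CTGF, CYR61, ANKRD1 and AMOTL2 are textbook readouts of their activity, and AMOTL2, AJUBA and LATS2 feed back on the pathway. NOV carries the same modular domains as CTGF and CYR61, and in melanocytes it is known for a part in their attachment to the basement membrane.

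The sequence around the start sites of 5 of the genes was searched for a core motif of the TEAD factors. RefSeq windows of 300 bases, from 250 before to 50 after a start site (GRCh38.p14), were at hand for CTGF (listed there as CCN2), ANKRD1, AMOTL2, AJUBA and LATS2, and not for NOV, CYR61, TEAD1 and ASAP1. The CTGF and ANKRD1 windows are shown because they hold more than 1 copy of the core TEAD motif, in capitals. CTGF lies at chr6:131951323-131951622 and ANKRD1 at chr10:90921038-90921337, both on the minus strand.
CTGF: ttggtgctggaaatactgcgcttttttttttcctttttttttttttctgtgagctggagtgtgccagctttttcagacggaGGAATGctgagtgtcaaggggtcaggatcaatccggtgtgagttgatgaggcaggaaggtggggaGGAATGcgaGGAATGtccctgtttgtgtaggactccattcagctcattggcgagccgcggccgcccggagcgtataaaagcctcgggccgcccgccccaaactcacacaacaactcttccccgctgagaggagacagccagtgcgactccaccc
ANKRD1: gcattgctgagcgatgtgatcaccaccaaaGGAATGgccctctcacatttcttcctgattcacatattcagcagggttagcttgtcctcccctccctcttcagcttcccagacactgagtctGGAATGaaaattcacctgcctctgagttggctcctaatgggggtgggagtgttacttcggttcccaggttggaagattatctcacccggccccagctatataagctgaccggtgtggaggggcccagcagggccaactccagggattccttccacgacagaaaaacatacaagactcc
The motif searched was GGAATG on either strand. CTGF held it 3 times, beginning 169, 104 and 95 bases before the start site, and ANKRD1 held it 2 times, beginning 220 and 128 bases before it. Among all 35116 windows, 14.0% held at least 1 copy, 1.37% at least 2 and 0.128% at least 3. AMOTL2, AJUBA and LATS2 each held 1 copy in 1 of their windows. A core GABP motif, CCGGAAG on either strand, was in 10.3% of the same 35116 windows and in 0 of the 7 windows of these 5 genes. These matches describe letters and not binding.

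The deleted gene was checked first. The deposited entry for the long form of GABPB1 had a log2 fold change of -12.60 ± 0.71 (SE, here and below) in the authors' deposited table for UM-UC-3, -10.60 ± 0.70 in that for A-375 total knockout and -12.79 ± 1.47 in that for the long-form knockout. The entry for the short form was at -9.86 ± 2.70, -9.81 ± 0.72 and 13.95 ± 1.04 in the same deposited tables. Entries named as both forms with the suffix DEX2 rose in the total knockouts. GABPB1L-DEX2 was at 11.82 ± 1.46 in UM-UC-3 and 13.61 ± 2.0 in A-375 total knockout, with no entry in the long-form table, per the authors' deposited tables. GABPB1S-DEX2 was at 10.15 ± 1.62 in UM-UC-3, 12.36 ± 1.88 in A-375 total and -12.00 ± 1.48 in long-form knockout in the authors' deposited tables. The libraries labelled as total knockouts thus had less of the entries without the suffix and more of those with it. The short-form entries went the opposite way in the long-form knockout. By these signs the controls had nearly no GABPB1S-DEX2 in the A-375 total comparison and nearly no GABPB1S in the long-form comparison. The entry names or the controls may not mean the same in both, which was not tested. Fitted values of this size depend on very low counts in 1 group and are no folds. A gene is called higher or lower here when the authors' adjusted p (Benjamini-Hochberg, DESeq2's Wald test) is under 0.05. By this rule 31.1% of 13310 genes were called in UM-UC-3, 10.8% of 14330 in A-375 total knockout and 0.904% of 14156 in the long-form knockout. Among the 9 genes, 1 was called higher in UM-UC-3 and 0 lower, 1 higher and 1 lower in A-375 total knockout, and 0 in the long-form knockout. The shares called higher among all genes were 17.0%, 5.07% and 0.240%, and the shares called lower 14.2%, 5.74% and 0.664%. The median log2 fold change of the 9 genes was -0.16 in UM-UC-3, -0.45 in A-375 total knockout and 0.18 in the long-form knockout, against 0.03, -0.05 and 0.02 for all genes.

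**Figure D1:**
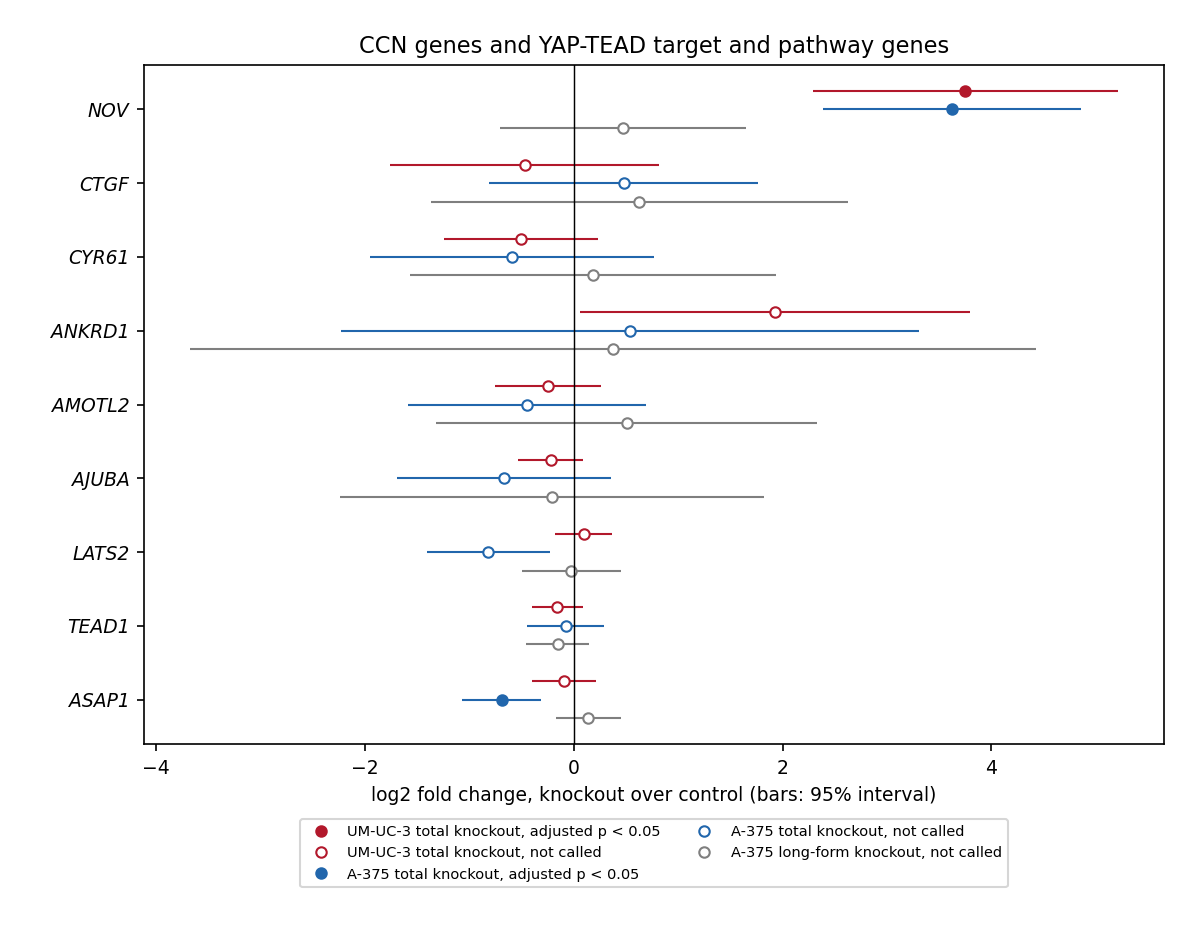
Log2 fold change of knockout over control for the 9 genes in the authors' deposited tables (points, filled where the adjusted p is under 0.05; bars, 95% interval from the deposited standard error). NOV lies at 3.75 and 3.62 in the total knockouts and at 0.47 in the long-form knockout, and ASAP1 in A-375 is the other filled point.

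NOV was higher in the total knockouts of both cell lines. Its log2 fold change was 3.75 ± 0.75 in UM-UC-3 (adjusted p = 1.12e-05), a 13.4-fold difference with a 95% interval of 4.88 to 37.0, in the authors' deposited table. In A-375 total knockout the authors' deposited table gave 3.62 ± 0.63 (adjusted p = 2.59e-06), or 12.3-fold (5.22 to 29.1). By size of the log2 fold change NOV ranked 25 of 13310 genes in UM-UC-3 and 50 of 14328 in A-375. The UM-UC-3 value minus the A-375 value was 0.12 ± 0.98, with a 95% interval of -1.79 to 2.04, so differences of several fold either way lie within the error. In the long-form knockout the authors' deposited table gave 0.47 ± 0.60 (adjusted p = 0.791), a fold of 1.39 with an interval of 0.614 to 3.13, and NOV ranked 572 of 14154 genes.

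The levels behind these folds were low. NOV's mean normalized count over the libraries of a fit was 51.4 in UM-UC-3, 383 in A-375 total knockout and 43.8 in the long-form knockout, above 4.40%, 41.4% and 1.18% of genes in the authors' deposited tables. Group levels follow from this mean and the fold change once the libraries in each group are counted. If only parental libraries were the controls, NOV stood at 56.6 normalized counts in UM-UC-3 total knockouts against 4.22 in controls, and at 441 in A-375 total knockouts against 35.8 in controls. Under that assumption the UM-UC-3 level of 4.22 rests on few counts in 1 parental library. With all controls assumed, the levels were 71.9 against 5.35 and 552 against 44.8. In the long-form knockout they were 50.8 against 36.7, or 55.3 against 39.9 with all controls. With the same control libraries in both A-375 tables, implied control levels would be close if the fitted fold equals the ratio of group means. Whether it does is not known. NOV's was 1.84 per 1000000 normalized counts in the total table and 0.685 in the long-form table with parental controls, a ratio of 2.68, larger than the gap of 99.7% of 13949 genes, while the other 8 genes had ratios of 0.987 to 1.13. The cause was not tested, and the A-375 fold of NOV rests on the level that the total table implies. Values per library were not used here, so it cannot be said whether all clones or a few carried the higher level.

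Scaled per kilobase of longest transcript and per 1000000 normalized counts, with parental controls assumed, NOV was at 0.53 in UM-UC-3 total knockouts and 0.04 in their controls, and at 8.98 in A-375 total knockouts and 0.73 in theirs. The assumed UM-UC-3 control is 1 library. CTGF was at 242 in UM-UC-3 total knockouts and 334 in controls, and CYR61 at 321 and 457. NOV thus stayed far under its relatives in UM-UC-3. In A-375 total knockouts the gap was narrower, with CTGF at 40.2 against 28.9 in controls and CYR61 at 29.5 against 44.5. WISP3, a further CCN gene, is given as 1.11 ± 0.46 (adjusted p = 0.0961) in the authors' deposited table for A-375 total knockout and 0.99 ± 0.55 (adjusted p = 0.502) in that for the long-form knockout. It has no entry in the UM-UC-3 table, and WISP1 and WISP2 have none in any of the 3.

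**Figure D2:**
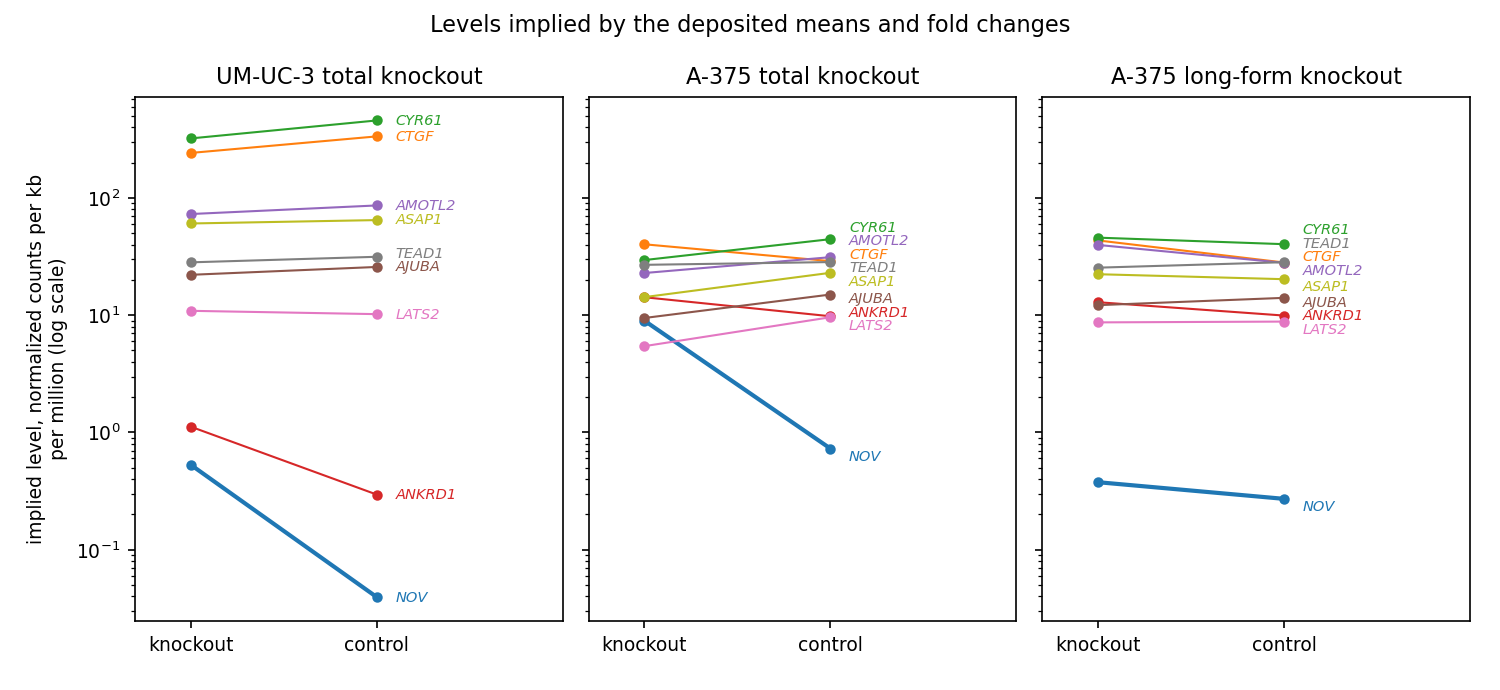
Implied level of each of the 9 genes in knockout and control libraries (normalized counts per kilobase of transcript and per 1000000, log scale, parental controls assumed), by table. NOV is the steepest line in both total knockouts, at 0.53 against 0.04 in UM-UC-3 and 8.98 against 0.73 in A-375. The parental control assumed for UM-UC-3 is 1 library.

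CTGF and CYR61, which promote adhesion and matrix production and are induced by serum and stretch, were called in none of the tables. The authors' deposited table for UM-UC-3 gave CTGF -0.47 ± 0.66 (adjusted p = 0.626), that for A-375 total knockout 0.48 ± 0.66 (0.691) and that for the long-form knockout 0.63 ± 1.02 (0.846). The 95% intervals of the CTGF fold, 0.296 to 1.77, 0.570 to 3.40 and 0.386 to 6.16, leave room for large changes either way. CYR61 was at -0.51 ± 0.38 (adjusted p = 0.310) in UM-UC-3, -0.59 ± 0.69 (0.631) in A-375 total knockout and 0.18 ± 0.89 (0.955) in the long-form knockout, per the authors' deposited tables. Its fold intervals were 0.422 to 1.17, 0.258 to 1.70 and 0.337 to 3.83.

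ANKRD1, a nuclear and sarcomeric ankyrin-repeat protein, had the widest errors of the 9. In UM-UC-3 the authors' deposited table gave 1.92 ± 0.95 (adjusted p = 0.109), a 3.79-fold difference with an interval of 1.04 to 13.8. The gene was not called by the adjusted p, while the authors' q-value for it was 0.0443. In A-375 the authors' deposited tables gave 0.54 ± 1.41 (adjusted p = 0.845) for the total knockout and 0.38 ± 2.07 (0.961) for the long-form knockout. Its fold intervals there ran from 0.213 to 9.89 and from 0.0785 to 21.5. AMOTL2, an angiomotin that holds YAP in the cytoplasm, was at -0.24 ± 0.26 in UM-UC-3, -0.45 ± 0.58 in A-375 total knockout and 0.51 ± 0.93 in the long-form knockout in the authors' deposited tables (adjusted p = 0.506, 0.669 and 0.865). AJUBA, a LIM-domain protein that inhibits the LATS kinases, was at -0.22 ± 0.16, -0.66 ± 0.52 and -0.21 ± 1.04 in the same deposited tables (adjusted p = 0.283, 0.437 and 0.957).

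LATS2, the kinase that acts directly on YAP and TAZ, was at 0.09 ± 0.14 in UM-UC-3 (adjusted p = 0.650), -0.82 ± 0.30 in A-375 total knockout (0.0557) and -0.02 ± 0.24 in the long-form knockout (0.980), per the authors' deposited tables. The A-375 value lay just outside the threshold, at 0.567-fold with an interval of 0.377 to 0.853. The UM-UC-3 value minus the A-375 value was 0.91 ± 0.33 (0.26 to 1.56). TEAD1, one of the DNA-binding partners, was at -0.16 ± 0.13, -0.08 ± 0.19 and -0.15 ± 0.15 in the authors' deposited tables for UM-UC-3, A-375 total and long-form knockout (adjusted p = 0.353, 0.827 and 0.732). Its standard error was the smallest of the 9 in each table, and its fold intervals were 0.756 to 1.06, 0.735 to 1.22 and 0.728 to 1.11.

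ASAP1, an Arf GTPase-activating protein of focal adhesions, was lower in A-375 total knockout, at -0.69 ± 0.19 (adjusted p = 0.00808), or 0.620-fold (0.477 to 0.807), in the authors' deposited table. Its values in UM-UC-3 and in the long-form knockout were -0.10 ± 0.16 (adjusted p = 0.679) and 0.14 ± 0.16 (0.766) in the deposited tables. UM-UC-3 minus A-375 was 0.59 ± 0.25 (0.10 to 1.08). Neither this difference nor those given above for NOV and LATS2 were tested, since the genes were chosen with their values known. Their intervals describe the deposited errors and do not show which genes differ between the cell lines. After the median of ASAP1's 50 nearest tested genes, -0.19 in A-375 total knockout, was taken off, its value was -0.50 and its adjusted p was 0.0697. Over all alternatives 0.0697 was the highest adjusted p, and the lowest value, 0.00454, was the authors' q-value.

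Several of the targets had large errors. Each gene's deposited standard error was set beside those of genes with a mean count within 1.5-fold of its own. CTGF's was 4.56, 3.44 and 6.37 times the median of such genes in UM-UC-3, A-375 total and long-form knockout, and larger than 99.6%, 97.4% and 99.2% of them. CYR61's was 2.39, 3.49 and 5.62 times the median, and ANKRD1's 2.50, 5.82 and 10.4 times. AMOTL2 stood at 1.90, 3.10 and 5.79 times. AJUBA stood at 1.11 times in UM-UC-3, where its error was ordinary, and at 2.38 and 6.24 times in A-375 total and long-form knockout. TEAD1, at 0.948, 1.01 and 0.944 times, and ASAP1, at 1.16, 1.02 and 0.986 times, had errors like those of their peers. NOV was at 1.70, 2.39 and 1.13 times.

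Of the 9 genes, 5 in UM-UC-3, 6 in A-375 total and 5 in long-form knockout had an error above 90% of such genes. Among the other genes of the YAP-TEAD signature described next, it was 7 of 15, 7 of 16 and 9 of 16. Among the other Hippo genes it was 3 of 24, 2 of 25 and 3 of 25, among the other SRF and TGF-beta targets 4 of 12, 4 of 12 and 7 of 12, and among the CCN receptors 3, 2 and 3 of 11. At a given mean count and number of libraries, DESeq2's standard error follows the dispersion it estimates between libraries. It moves that estimate towards a trend over all genes, except for genes far above the trend, which keep their own. CTGF, CYR61, ANKRD1 and AMOTL2 were above 90% in all 3 tables. The cause was not tested.

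**Figure D3:**
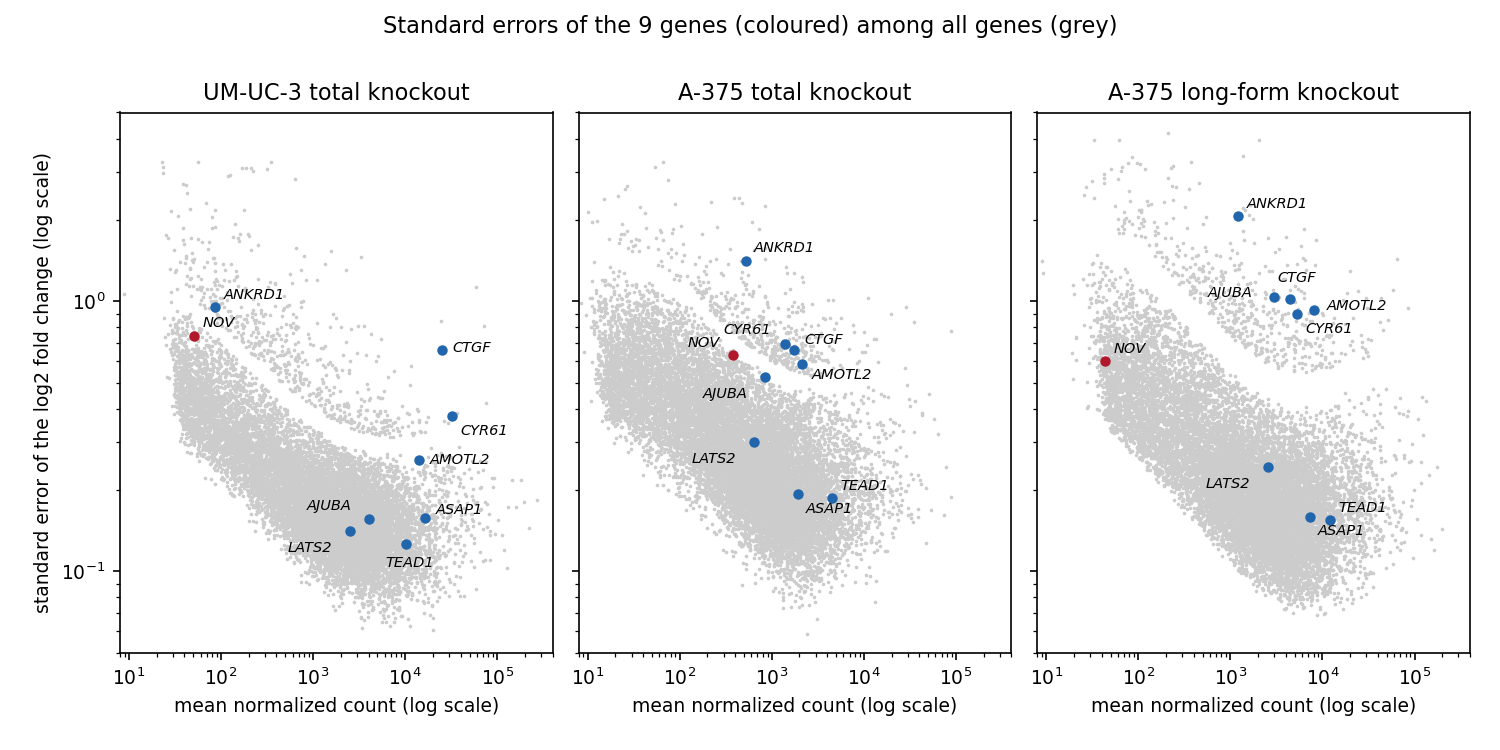
Deposited standard error of the log2 fold change against the mean normalized count of every gene (grey points, both axes on a log scale) for each table, with NOV in red and the other 8 genes in blue. CTGF, CYR61 and ANKRD1 stand above the bulk in each panel, while TEAD1 lies inside it.

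A published YAP-TEAD signature of 22 genes, which holds 6 of the 9, was counted as a whole. In UM-UC-3, 21 were measured, of which 0 were called higher and 2 lower, or 9.52% against 31.1% of all genes. The median log2 fold change was -0.06 against 0.03 for all genes. In A-375 total knockout 2 of 22 were called higher and 2 lower, or 18.2% against 10.8% of all genes, with a median of -0.32 against -0.05. In the long-form knockout 0 of 22 were called, with a median of 0.20 against 0.02, and a background of 0.904% called. Without the 6 genes described above, the counts were 0 higher and 2 lower of 15, 2 higher and 1 lower of 16, and 0 of 16. That is 13.3% in UM-UC-3 and 18.75% in A-375 total knockout, beside the same shares of all genes. The 2 called lower in UM-UC-3 were AXL, a receptor tyrosine kinase, at -0.65 ± 0.10 (adjusted p = 3.34e-08), and DOCK5, a Rac exchange factor, at -0.62 ± 0.17 (0.0027), in the authors' deposited table. In A-375 total knockout the authors' deposited table gave IGFBP3, which binds insulin-like growth factors, as 2.70 ± 0.60 (adjusted p = 0.000482) and GADD45A, a stress-response gene, as 0.88 ± 0.26 (0.0122). PTPN14, a phosphatase that holds YAP in the cytoplasm, was at -0.49 ± 0.14 (adjusted p = 0.00716) in the same deposited table.

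**Figure D4:**
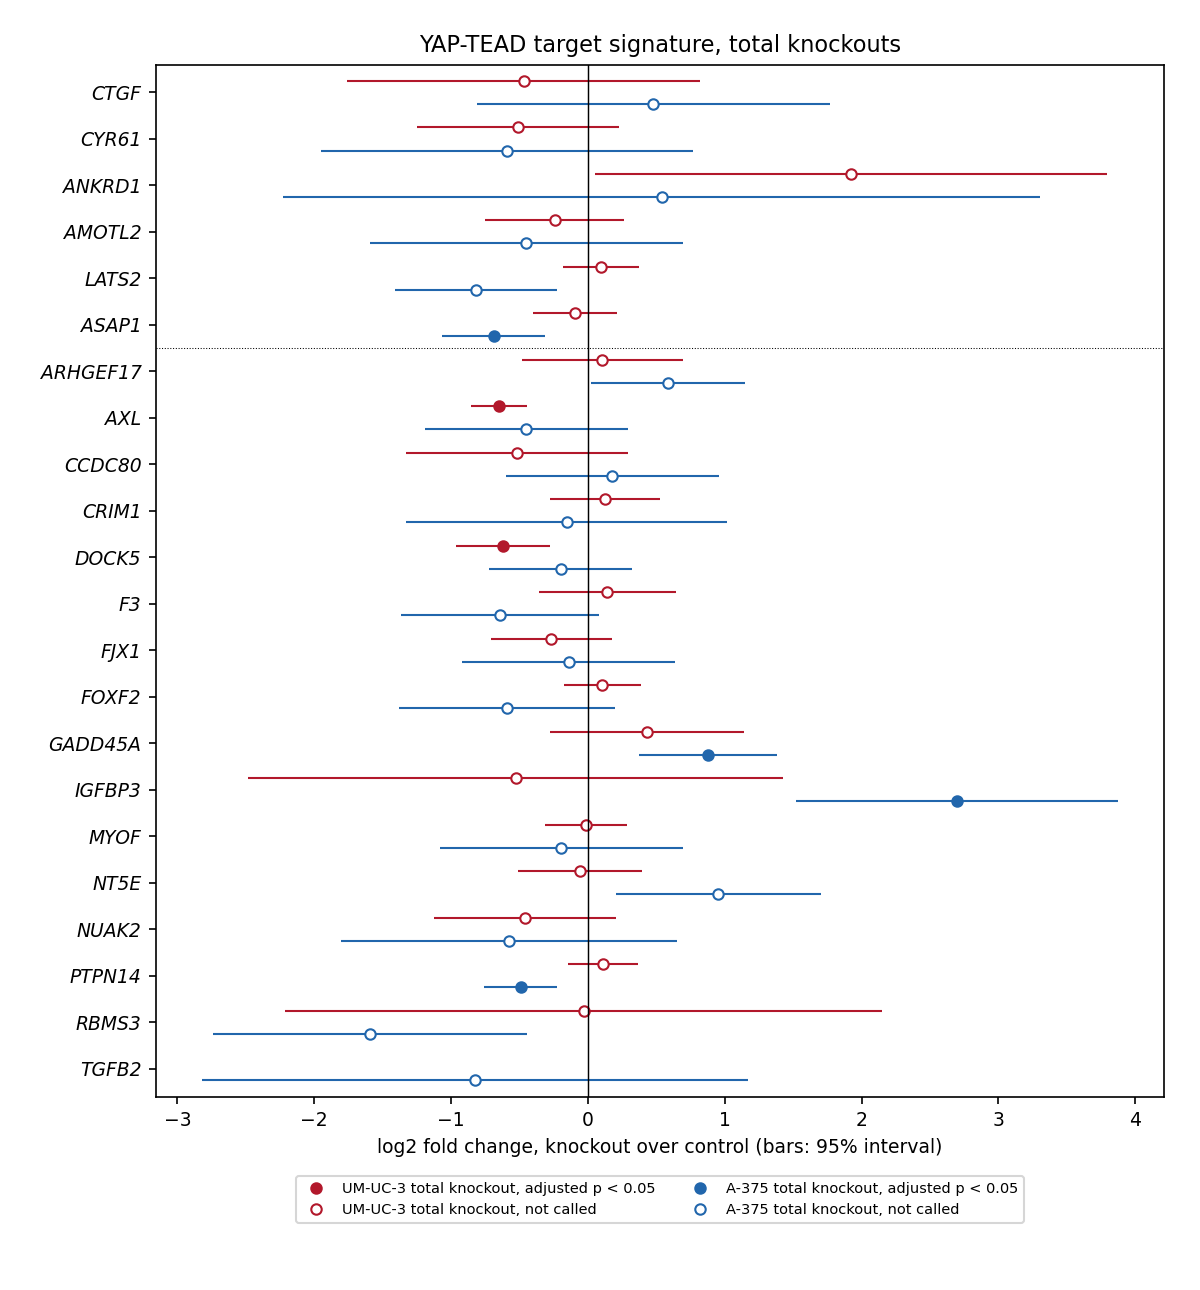
Log2 fold change of knockout over control for the genes of the YAP-TEAD signature in the authors' deposited tables for the total knockouts (points, filled where the adjusted p is under 0.05; bars, 95% interval). Genes above the dotted line are the 6 described singly. IGFBP3 in A-375 at 2.70 is the highest called value, and AXL in UM-UC-3 at -0.65 has the smallest adjusted p.

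The proteins upstream were measured too. YAP1 was at 0.06 ± 0.20 in UM-UC-3, -0.14 ± 0.20 in A-375 total and 0.01 ± 0.09 in long-form knockout, and WWTR1 at 0.28 ± 0.20, -0.24 ± 0.24 and -0.01 ± 0.23, in the authors' deposited tables, none of them called. Of the YAP, TAZ, TEAD and VGLL genes 0 of 7 were called in UM-UC-3, 1 higher and 0 lower of 8 in A-375 total and 0 of 8 in long-form knockout, with medians of 0.06, -0.11 and 0.00. The 1 was VGLL4, which competes with YAP for the TEAD factors, at 0.72 ± 0.25 (adjusted p = 0.0372) in the authors' deposited table. Among the Hippo kinases and regulators, 5 were called higher and 3 lower of 27 in UM-UC-3 (median 0.09), 2 higher and 5 lower of 28 in A-375 total knockout (median -0.29) and 1 higher and 1 lower of 28 in the long-form knockout (median 0.05). That is 29.6%, 25% and 7.14% of the list, against 31.1%, 10.8% and 0.904% of all genes.

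The UM-UC-3 log2 fold change minus that of A-375 total knockout was tested for genes outside the 9 (normal p, Benjamini-Hochberg adjustment over 12640 genes). Of 24 Hippo genes tested, 5 were called higher and 2 lower in UM-UC-3, against 6.32% and 4.12% of all genes, and of 15 signature genes 1 higher and 0 lower. All genes together were called in 10.4%.

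In UM-UC-3 the authors' deposited table gave TP53BP2, a scaffold for phosphatases, as 0.62 ± 0.15 (adjusted p = 0.000217) and SAV1, the adaptor of the MST kinases, as 0.45 ± 0.12 (0.00178). FAT1, an atypical cadherin, was at -0.51 ± 0.13 (adjusted p = 0.000466) and WWC1, the scaffold KIBRA, at -0.60 ± 0.16 (0.00117) in that deposited table. In A-375 the smallest adjusted p-values of the list belonged to other genes. DCHS1, a protocadherin that binds FAT4, was at -2.82 ± 0.50 (adjusted p = 5.23e-06) in the authors' deposited table for A-375 total knockout. STK3, the kinase MST2, was at -0.88 ± 0.23 (adjusted p = 0.00441) there, WWC2 at -0.81 ± 0.22 (0.0052) and TAOK2, a kinase that activates the MST kinases, at 0.57 ± 0.14 (0.00165), all from the deposited table. In the long-form knockout the authors' deposited table gave FAT1 0.46 ± 0.13 (adjusted p = 0.0429) and FAT4 -1.28 ± 0.36 (0.0451).

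SRF and TGF-beta signalling also drive CTGF and CYR61, so a list of their other targets was counted. In UM-UC-3, 3 of 12 were called higher and 4 lower, in A-375 total knockout 1 higher and 1 lower of 12, and in the long-form knockout 0 of 12, with medians of 0.05, 0.07 and 0.18. Of all genes 31.1%, 10.8% and 0.904% were called. ACTA2, smooth muscle actin, was called higher in both cell lines, at 1.47 ± 0.41 (adjusted p = 0.00259) in UM-UC-3 and 1.84 ± 0.37 (0.000104) in A-375 total knockout in the authors' deposited tables. CNN2, a calponin, was called lower in both, at -0.47 ± 0.13 (adjusted p = 0.00235) and -1.05 ± 0.30 (0.00955) in the deposited tables. The TGF-beta feedback genes SMAD7, at 1.60 ± 0.32 (adjusted p = 1.68e-05), and SKIL, at 1.34 ± 0.27 (1.69e-05), were called higher in the authors' deposited table for UM-UC-3. In the same deposited table VCL, at -0.55 ± 0.16 (adjusted p = 0.00332), TPM1, at -0.57 ± 0.23 (0.0394), and CNN1, at -1.53 ± 0.63 (0.0486), were called lower.

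CCN proteins signal through integrins, LRP1, LRP6 and syndecans. Of 11 such receptors, 2 were called higher and 1 lower in UM-UC-3, 1 higher and 1 lower in A-375 total knockout and 0 in the long-form knockout, with medians of -0.05, -0.26 and -0.03. In UM-UC-3 that is 27.3% of the list against 31.1% of all genes, and in A-375 total knockout 18.2% against 10.8%. In UM-UC-3 the authors' deposited table gave LRP1 as 0.66 ± 0.14 (adjusted p = 4.12e-05), ITGB1 as 0.37 ± 0.11 (0.00427) and the syndecan SDC4 as -0.59 ± 0.12 (3.79e-05). In A-375 total knockout it gave ITGA5, the fibronectin receptor subunit, as 0.90 ± 0.28 (adjusted p = 0.0187) and LRP6 as -0.69 ± 0.20 (0.00952), again from the deposited table.

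The genes around NOV on its chromosome were set beside it. NOV lies at chr8:119416306-119424353 on the plus strand (hg38, GENCODE release 29). The median log2 fold change of its 50 nearest tested genes was 0.12 in UM-UC-3, -0.11 in A-375 total and 0.02 in long-form knockout. Of the 50, 11 were called higher and 7 lower in UM-UC-3, 3 and 3 in A-375 total knockout, and 0 in the long-form knockout. Among all genes 17.0% were called higher and 14.2% lower in UM-UC-3, and 5.07% and 5.74% in A-375 total knockout. The nearest tested gene before it was SAMD12 in UM-UC-3, at 1.66 ± 0.62 (adjusted p = 0.0288), and MAL2 in A-375 total knockout, at 1.95 ± 0.72 (0.0562), in the authors' deposited tables. The nearest after it in both was ENPP2, the enzyme autotaxin, at 0.43 ± 0.78 in UM-UC-3 and -0.32 ± 0.75 in A-375 in the deposited tables. HAS2, a hyaluronan synthase that lies 8 tested genes after NOV and was singled out after its values were seen, was at 3.79 ± 0.76 (adjusted p = 8.49e-05) in A-375 total knockout in the authors' deposited table, beside 3.62 for NOV. In the long-form knockout HAS2 was at 1.69 ± 0.90 (adjusted p = 0.482) in the deposited table. HAS2 was not among the tested neighbours of NOV in UM-UC-3, so the cell lines cannot be compared for it. Whether the region had a part in NOV's value was not tested. ASAP1 lies further along the same arm, at chr8:130052104-130443660 on the minus strand. Next to it FAM49B was called lower in both, at -0.62 ± 0.13 (adjusted p = 3.79e-05) in UM-UC-3 and -0.77 ± 0.27 (0.0476) in A-375 total knockout in the authors' deposited tables. On its other side EFR3A was at 0.36 ± 0.13 (adjusted p = 0.0208) and 0.14 ± 0.14 in the same deposited tables.

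**Figure D5:**
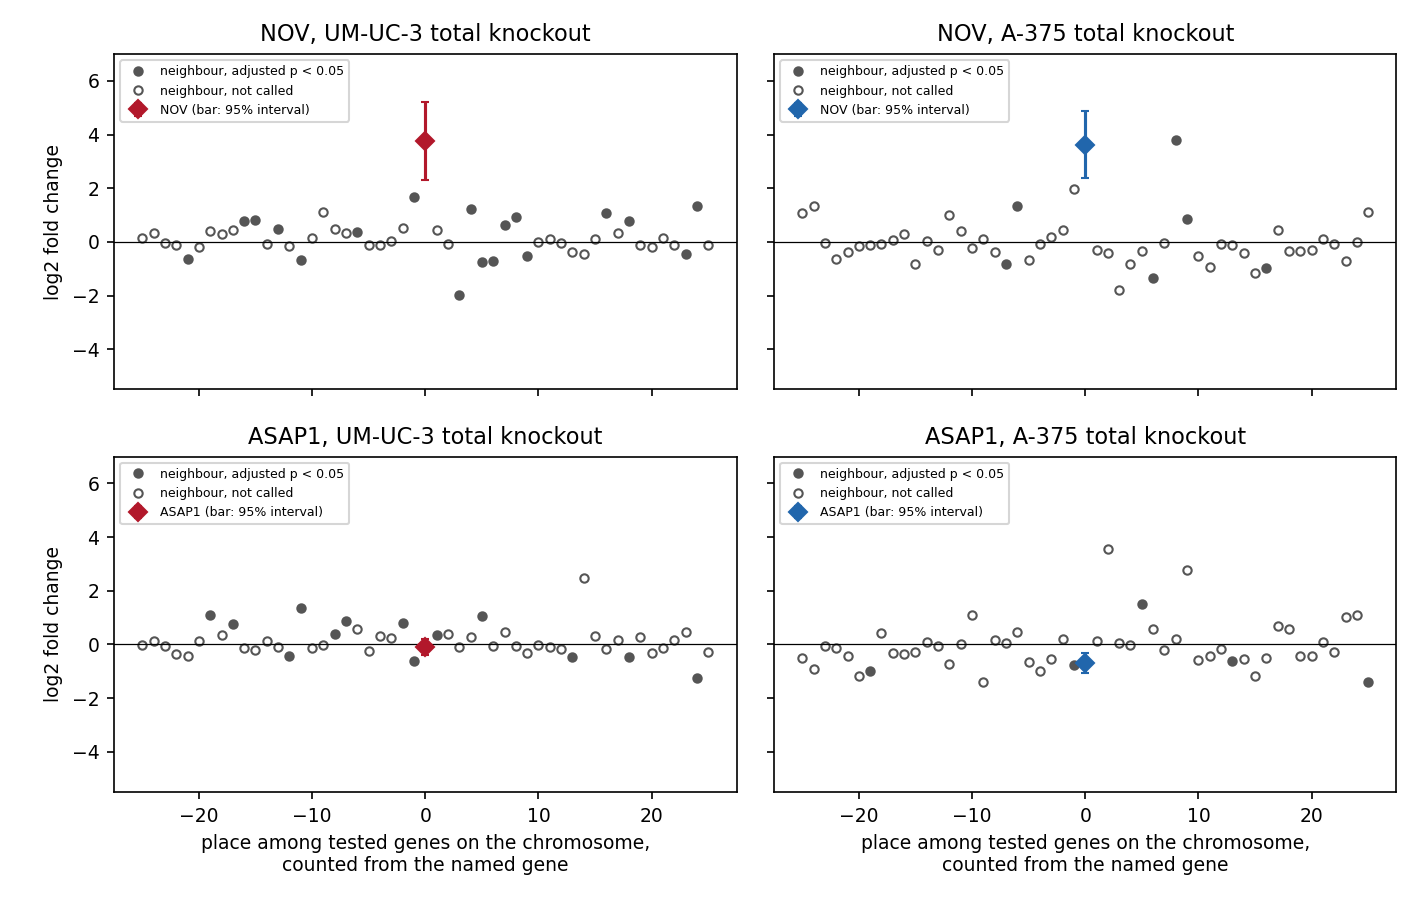
Log2 fold change of knockout over control for the 50 tested genes nearest to NOV (top) and to ASAP1 (bottom) in the authors' deposited tables for the total knockouts, in order along the chromosome (horizontal axis, tested genes counted from the named gene; filled circles, adjusted p under 0.05). NOV stands above its neighbours in UM-UC-3, where HAS2 is not among the genes shown. In A-375 total knockout HAS2, at 3.79, stands beside NOV.

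The genes whose pattern was most like that of NOV were found by Euclidean distance over the 3 log2 fold changes, among 10503 genes whose mean normalized count reached 100 in every table. MMP1, interstitial collagenase, came closest at a distance of 0.735, with 3.14 ± 0.89 in UM-UC-3, 4.02 ± 0.94 in A-375 total and 0.60 ± 0.43 in long-form knockout in the authors' deposited tables. The next were TMEM45A at 2.07, DNER, a Notch ligand, at 2.13, GABPB2, the paralog of the deleted subunit, at 2.22 and FAM19A2 at 2.29. NOV's own mean fell short of 100 in UM-UC-3 and in the long-form table. With no filter on the mean, an alternative added after the data were seen, MMP1 stayed nearest among 12463 genes and LUZP6 came next at 1.70, ahead of TMEM45A. In that search NR4A3 took rank 5 at 2.21, GABPB2 fell to rank 7 and FAM19A2 to rank 9. The distances take no account of the standard errors. GABPB2 was at 2.49 ± 0.20, 1.81 ± 0.32 and 0.29 ± 0.26 in the authors' deposited tables for UM-UC-3, A-375 total and long-form knockout. Of 12642 genes with an adjusted p in both total knockouts, 152 were called higher in both. The log2 fold change was at least 1 in both for 68 of them, at least 2 for 12 and at least 3 for 7. The 7 were NOV, MMP1, LUZP6, whose reads overlap those of MTPN, HDC, PCBP3, GABPB1L-DEX2 and GABPB1S-DEX2.

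The lines were checked against lineage markers. For A-375, SOX10 and S100B were well measured, with mean normalized counts of 14704 and 1586 in the authors' deposited table for the total knockout, while MLANA, TYR and DCT had no entry there, and 0 of the 5 measured melanocyte markers were called. MITF was at 686 there, and PMEL and TYRP1 had low counts of 20.1 and 15.3. For UM-UC-3, 4 of 9 urothelial markers were measured, with 3 called higher and 1 lower against 17.0% and 14.2% of all genes, and UPK1B, UPK2, UPK3A, KRT5 and KRT20 had no entry. Of the 4, KRT18 had a mean normalized count of 8029, against 194.5 for GATA3, 133 for KRT7 and 35.3 for UPK1A. KRT18 was also measured in A-375, at 4835 in the total knockout comparison, so it does not tell the lines apart. The part of lineage in the results above was not tested.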

How the data were processed

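The mRNA libraries were made with a stranded KAPA kit per the labels' protocols. The submitters' processing notes list HISAT2, SAMtools, StringTie, DESeq2 and build hg38, with neither versions nor order. Which annotation, gene filter, strand setting, design formula and control libraries were used is not stated there. Only the authors' fitted tables were used, with no value per library, so depth and precision per library are unknown and the deposited standard error is the only error.

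Per the file headers, the authors' signal column is the mean of counts divided by DESeq2 size factors. The deposited log2 columns give the knockout-over-control fold change with its standard error, the authors' score column is the Wald statistic, and the deposited p-value columns are, per the file headers, a raw p, its Benjamini-Hochberg correction and a q-value. Adjusted p-values recomputed from the deposited p differed by at most 6.98e-05. The median mean normalized count was 1369.9 in UM-UC-3, 542 in A-375 total and 1564 in long-form knockout.

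From these, folds, 95% intervals (normal), implied group levels and differences between cell lines were computed with Python 3.11.15, pandas 2.3.3, numpy 2.4.6 and SciPy 1.17.1. An implied level assumes that the deposited mean weighs the libraries equally and that the controls are the parental libraries alone or all controls. UM-UC-3 minus A-375 was tested over 12640 genes whose mean reached 10 in both tables (difference over the root of the summed squared errors, 2-sided normal p, Benjamini-Hochberg adjustment); this called 10.4% of them. That calculation was run on simulated fold changes drawn with the deposited standard errors. This checks the arithmetic and not whether those errors are too small for clones. Genes were placed by symbol in GENCODE release 29, which held 12543 of 13310, 13497 of 14332 and 13343 of 14160 names, and promoter windows by RefSeq symbol. Windows of chromosome 8 were not used.

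The 9 genes and all lists were chosen with earlier results of these data known. Named were the 9 genes and the other CCN genes; in each list and table up to 4 further called genes with the smallest adjusted p; in each list up to 3 with the smallest adjusted p of the difference; the nearest tested genes of NOV and ASAP1; and the 5 genes nearest to NOV in pattern. The remaining SRF and TGF-beta targets called in UM-UC-3 were named as well. Where replicates may share a clone, p-values measure the spread between libraries. Alternatives were the q-value, a threshold of 0.01, filters on the mean count, centring, removal of chromosomal neighbours lists without the 9 genes and no filter in the search for genes like NOV, the last 2 added after the data were seen.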

Additional observations from a re-analysis of the deposited data

Results flagged for a closer look

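For 11 named genes of the lists, the effect of total knockout differed between the cell lines by a test of the difference itself (UM-UC-3 log2 fold change minus that of A-375, normal p with Benjamini-Hochberg adjustment over 12640 genes, of which 10.4% were called); none of the 9 genes described first was tested this way. Of the 11, 7 belong to the list of Hippo kinases and regulators, where 5 of 24 tested genes were higher and 2 lower in UM-UC-3, with a median difference of 0.44 against 0.09 for all genes. FAT1 differed by -1.28 ± 0.26 (SE; adjusted p = 0.000147). The authors' deposited tables gave it as -0.51 ± 0.13 in UM-UC-3 (adjusted p = 0.000466) and 0.77 ± 0.23 in A-375 (0.0122), called in opposite directions. TAOK2 differed by -0.83 ± 0.18 (adjusted p = 0.000387) and TP53BP2 by 0.85 ± 0.19 (0.000867). WWC2 differed by 0.91 ± 0.27 (adjusted p = 0.0155), STK3 by 0.88 ± 0.29 (0.0280) and FAT4 by 2.10 ± 0.69 (0.0310), each of them called lower in A-375 alone of the total knockouts. PTPN14, which also belongs to the YAP-TEAD signature, differed by 0.60 ± 0.19 (adjusted p = 0.0217). The syndecan SDC4 differed by -1.08 ± 0.25 (adjusted p = 0.000974), and the TGF-beta feedback genes SKIL and SMAD7 by 1.28 ± 0.39 (0.0193) and 1.38 ± 0.43 (0.0212). MITF, the master regulator of melanocytes, differed by 1.68 ± 0.55 (adjusted p = 0.0296), at 1.47 ± 0.30 in UM-UC-3 and -0.22 ± 0.46 in A-375 in the authors' deposited tables. The cell lines differ in tissue of origin and in their clones, and these cannot be told apart.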

How the results depend on the processing

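No paired analysis was possible because the deposited tables hold no value per library, and leaving out libraries was not run for the same reason. NOV was called higher in both total knockouts under every alternative run. The alternatives reuse the deposited values with which NOV was chosen, so this result is a description and supports nothing further. Of the alternatives for the 9 genes 131 left direction and call as they were. ANKRD1 in UM-UC-3 (q = 0.0443; adjusted p 0.109 to 0.123 otherwise) and LATS2 in A-375 total knockout (q = 0.0313; 0.0556 to 0.293 otherwise) were called by the q-value alone, ASAP1 in A-375 total knockout was not called after removal of its neighbours (-0.50), and LATS2 in the long-form knockout turned to 0.0508 then. Implied levels moved, on the log2 scale, by less than the standard error of the fold change between control sets. At an adjusted p under 0.01, 2710 genes were called in UM-UC-3 (4145 at 0.05), 705 in A-375 total (1549), 62 in long-form knockout (128) and 518 for the difference (1320); 0 Hippo genes in long-form knockout and, in A-375 total knockout, 0 YAP, TAZ, TEAD and VGLL genes and 1 CCN receptor. The q-value called 2 of the 9 genes in UM-UC-3, 1 YAP, TAZ, TEAD and VGLL gene in UM-UC-3 and 2 in A-375, and 7 signature genes in A-375 total knockout. Centring left 1 Hippo gene in long-form knockout. Removal of neighbours left 1 of the 9 genes and 2 signature genes in A-375 total knockout, and 1 Hippo gene in long-form knockout. Of the YAP, TAZ, TEAD and VGLL genes it left 0 in A-375. In UM-UC-3 it added a call for 1 of these genes, where 0 of 7 were called in the main results. Without the 9 genes, 0 CCN genes were called in UM-UC-3, where 0 were then measured, and 0 in A-375 total knockout, where 1 was. Uncalled values also changed sign after removal of neighbours, GATA3 (0.0898) and KRT18 (0.00515) in A-375 total knockout, PTPN14 in UM-UC-3 (-0.13) and long-form knockout (-0.0244) and WWC2 in long-form knockout (-0.0383); and after centring, STK3 in UM-UC-3 (-0.0271) and TAOK2 in long-form knockout (-0.000836). The causes were not tested. The low mean counts of NOV in UM-UC-3 and in the long-form knockout limit what can be said of its fold there.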

Other observations

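Other assumptions on the controls left the gap in NOV's implied A-375 control level in place. With all controls in both tables it was 2.30 per 1000000 normalized counts in the total table against 0.746 in the long-form table, a ratio of 3.09, and the mixed choices gave 2.47 and 3.36. The median ratio over 13949 genes was 1.01 with parental and 0.995 with all controls. The melanocyte genes MITF and DCT were called higher in UM-UC-3, a bladder line, at 1.47 ± 0.30 and 2.20 ± 0.54 in the authors' deposited table. They were 2 of 6 melanocyte markers measured there (33.3%), and 31.1% of all genes were called. The mean normalized counts of MITF and DCT there were 357 and 109, under the median of 1369.9 over all genes. The other measured markers, SOX10, TYRP1, S100B and MLANA, had lower means and were not called. MMP1, the gene most like NOV in pattern, lies on chromosome 11, apart from NOV on chromosome 8.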
